A study of Rattus norvegicus with 37 samples.

Results

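Hamp, Tf and Cp are 3 genes of iron and copper transport that the rat liver transcribes for secreted proteins. They were chosen by their Ensembl gene identifiers, ENSRNOG00000021029 for Hamp, ENSRNOG00000030625 for Tf and ENSRNOG00000011913 for Cp, and are 3 of the 24613 genes in the count table. All 3 had counts in each of 37 livers, and all 3 passed the filter on low counts in every comparison. The smallest single value was 6186 counts, for Hamp in 1 uninjured rat.

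Liver RNA came from female Sprague-Dawley rats that were 8 to 9 weeks old by weight at the start, in a study of how activity and exercise relate to liver gene expression after spinal cord injury (SCI). In the SCI + In-Cage Activity set, No SCI + Standard rats were uninjured and lived in standard cages, whereas CONT SCI + Tiny and CONT SCI + Large rats had a 25 g-cm contusion of the spinal cord at T2 and lived in tiny or large cages (5 rats per group). In the SCI + Exercise set all rats lived in tiny cages and were uninjured (No SCI, 4 rats), contused in the same way (CONT SCI, 4 rats), transected completely at T2 (TX SCI, 4 rats), or contused and then trained by swimming (CONT SCI + SWIM, 5 rats) or shallow water walking (CONT SCI + SWW, 5 rats). Labels give collection at 11.5 weeks after contusion and at 8.5 weeks after transection, while the methods of the study give a later collection for the trained rats. The methods also place the collection of uninjured rats at a time matching 11.5 weeks after injury. Injured rats also had a laminectomy and received gentamicin, buprenorphine and lactated Ringer's solution after surgery. No sham-operated group is described, so injury cannot be told apart from the surgery and these treatments. In the In-Cage set injury and cage size cannot be told apart either, because no uninjured rat of that set lived in a tiny or large cage. Rats were kept in pairs, the labels do not say which rats shared a cage, and the tests treated each rat as independent.

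Hepcidin, the peptide made from Hamp, is secreted by hepatocytes and lowers the release of iron into blood by binding the iron exporter ferroportin. Its transcription is known to rise with iron load through bone morphogenetic protein signaling and with inflammation through interleukin-6 and STAT3. Transferrin, the product of Tf, carries iron in plasma, and ceruloplasmin, the product of Cp, is a copper-containing ferroxidase that carries most plasma copper and oxidizes iron for loading onto transferrin. Cp is also known as an acute phase gene, one that hepatocytes transcribe more during inflammation.

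The promoters of the 3 genes are shown because the text describes how their transcript levels varied, and because the Hamp promoter is a standard example of iron and cytokine input read on 1 short stretch of DNA. Each is the stretch of 250 bases just before the transcript start listed for the gene, 5′ to 3′ on the gene's strand, from RefSeq in the rat build GRCr8. For Cp the table's start is that of a transcript that begins inside the annotated gene, so the window shown lies within the gene. The counts were made on another build (Rn6), and no coordinate was carried between them. Capitals mark matches to the motifs searched.
Hamp (chr1:95300272-95300521, minus strand): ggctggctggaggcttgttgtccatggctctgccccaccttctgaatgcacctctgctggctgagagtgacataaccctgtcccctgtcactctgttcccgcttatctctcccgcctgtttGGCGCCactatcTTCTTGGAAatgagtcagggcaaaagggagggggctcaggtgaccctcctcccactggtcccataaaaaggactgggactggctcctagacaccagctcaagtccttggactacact
Tf (chr8:112695377-112695626, minus strand): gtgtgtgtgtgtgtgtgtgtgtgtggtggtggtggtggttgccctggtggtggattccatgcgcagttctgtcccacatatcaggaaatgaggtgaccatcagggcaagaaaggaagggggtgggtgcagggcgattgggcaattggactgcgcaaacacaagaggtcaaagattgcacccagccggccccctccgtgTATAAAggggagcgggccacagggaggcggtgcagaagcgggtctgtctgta
Cp (chr2:104368420-104368669, plus strand): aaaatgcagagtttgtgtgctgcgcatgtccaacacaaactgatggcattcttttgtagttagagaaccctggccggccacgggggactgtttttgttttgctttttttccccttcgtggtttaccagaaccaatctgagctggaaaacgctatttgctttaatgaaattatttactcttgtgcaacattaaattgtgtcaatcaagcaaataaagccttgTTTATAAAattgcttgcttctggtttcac

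The motifs searched, on both strands, were GGCGCC (the core of the element that answers bone morphogenetic protein signals), TTCNNNGAA (the STAT site), CACGTG (the E-box), ACGTG (the core of the hypoxia response element, which also lies within CACGTG) and TATAAA (the TATA box). The Hamp promoter held GGCGCC 129 bases and TTCTTGGAA, a match to the STAT motif, 117 bases before the gene start. Of 33469 rat promoters of the same length, 8.69% held GGCGCC and 7.67% held TTCNNNGAA. TATAAA was matched 52 bases before the start of Tf. For Cp it was matched on both strands by overlapping letters 27 and 29 bases before the transcript start inside the gene, and 12.9% of promoters held it. None of the 3 windows held CACGTG or ACGTG, which 5.59% and 16.6% of promoters hold. A match gives only the presence of these letters in the window.

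Depth differed between the sets, from 20066978 to 25130252 counts per rat in the In-Cage set and from 26190364 to 36761953 in the Exercise set, with no overlap. Levels are given as CPM, the count of a gene relative to the TMM-scaled size of its library over all 37 rats, a scale on which 1 gene can be compared between rats but different genes cannot be ranked, since gene length is not divided out. Counting error is small beside the spread between rats at these depths, so the number of rats set the precision. In whole-liver RNA, fewer cells of a type and less RNA per cell cannot be told apart. The identifiers of liver and blood cell markers could not be paired with names, so the tissue label was not checked against markers.

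Within the sets none of the 3 genes passed the quasi-likelihood test of edgeR, with p adjusted over all genes tested by the Benjamini-Hochberg method, in any of 11 comparisons. That is 0 of 33 tests, while DESeq2 called 2 of 33. Of all genes tested, edgeR called 12.5% for CONT SCI + Tiny against No SCI + Standard. In each other comparison within the sets it called between 0.0% and 0.759%, so 0 of 33 is near the background. At an unadjusted p under 0.05 edgeR had 3 of 33, all against No SCI + Standard, in comparisons where 34.3% (CONT SCI + Tiny) and 29.4% (CONT SCI + Large) of all genes tested had one. DESeq2 had 4 of 33, which included Tf in TX SCI against CONT SCI (unadjusted p = 0.0394, DESeq2 adjusted p = 0.337). The share of all genes with an unadjusted DESeq2 p under 0.05 was not computed, so that count has no background here. Both DESeq2 calls were for Hamp against No SCI + Standard, where DESeq2 called 14.7% (CONT SCI + Tiny) and 8.08% (CONT SCI + Large) of genes. DESeq2 called 0.0174% of genes between the cage sizes, 0.357% for CONT SCI and 1.65% for TX SCI against No SCI, 2.06% for TX SCI against CONT SCI, 1.45% and 5.13% for CONT SCI + SWIM and CONT SCI + SWW against CONT SCI, 1.14% and 5.24% for them against No SCI, and 0.08% between them. Between the sets, where rats of the same injury status were compared, 3 of 6 tests passed in edgeR and 4 of 6 in DESeq2. Of all genes, edgeR called 45.1% between the contused groups and 51.4% between the uninjured groups, and DESeq2 called 33.3% and 38.7%.

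Among all 37 livers, the Hamp level ran from 306 to 1152 CPM, a 3.76-fold range with a median of 745. Tf ran from 26370 to 44502 CPM, a 1.69-fold range, and took 2.57% to 4.89% of all counts of a liver. Cp ran from 1326 to 3967 CPM, a 2.99-fold range. The plot of levels by group shows the 3 genes rat by rat.

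**Figure D1:**
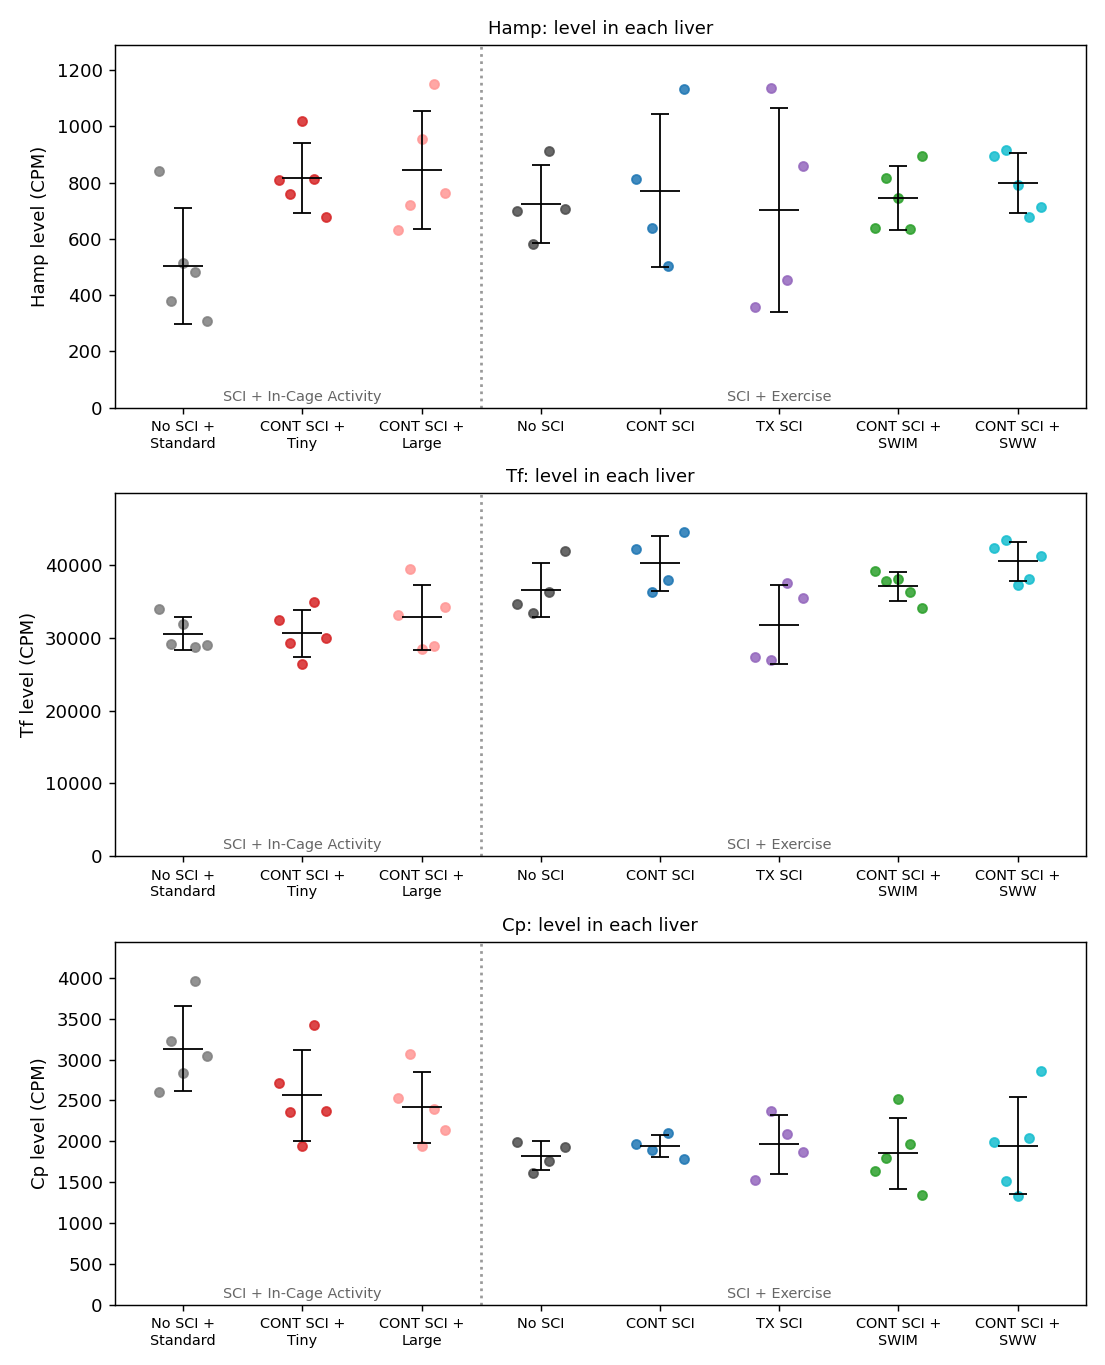
Level of Hamp, Tf and Cp in each liver (y axis, TMM-scaled CPM from 0) for the 8 groups (x axis), with a point for each rat and bars for the mean and SD (4 or 5 rats per group). A dotted line parts the In-Cage set from the Exercise set, and the No SCI + Standard rat at 842 CPM of Hamp stands among the injured rats of its set.

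Hamp had the largest difference from uninjured rats in the In-Cage set. In No SCI + Standard, the Hamp level was 842, 378, 515, 482 and 306 CPM in replicates 1 to 5. In CONT SCI + Tiny it was 810, 759, 1017, 814 and 678 CPM. In CONT SCI + Large it was 630, 720.4, 954, 1152 and 762 CPM. All 10 injured rats lay above the uninjured median of 482 CPM, but uninjured replicate 1 lay above 7 of them, so neither injured group was clear of the uninjured one. The other 4 uninjured rats, at 515 CPM or less, all lay below the lowest injured rat.

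Group means of Hamp were 505 ± 206 CPM for the uninjured rats, 816 ± 125 for CONT SCI + Tiny and 844 ± 209 for CONT SCI + Large (SD, n = 5 each). The difference of CONT SCI + Tiny from No SCI + Standard was 0.69 on the log2 scale (SE 0.23), a ratio of 1.62 with a 95% interval from 1.15 to 2.27. It missed the threshold (edgeR adjusted p = 0.0574, unadjusted p = 0.00890), in a comparison where 12.5% of all genes tested were called. That background of 1479 called genes rested on single rats, and ran from 15 of 11971 without No SCI + Standard replicate 4 to 2998 of 11977 without replicate 1. For CONT SCI + Large the difference was 0.74 on the log2 scale (SE 0.25), a ratio of 1.67 from 1.15 to 2.44, with edgeR adjusted p = 0.0966 and 0.0337% of genes called (from 0 to 2020 genes with 1 rat left out, the most without CONT SCI + Large replicate 1). Both comparisons use the same 5 uninjured rats and are not independent. The F test over the 3 groups gave F = 6.20 and edgeR adjusted p = 0.0778, with 4.82% of genes called. The 584 genes behind that share ran from 0 without No SCI + Standard replicate 5 to 2197 without CONT SCI + Large replicate 1.

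Hamp calls in this set depended on single rats and on the tool. Without No SCI + Standard replicate 1, Hamp was higher in the tiny-cage rats by 0.96 on the log2 scale (edgeR adjusted p = 0.00560, with 25.0% of genes called) and in the large-cage rats by 1.03 (edgeR adjusted p = 0.0263, with 10.1% called). Leaving out CONT SCI + Large replicate 1, the injured rat with the lowest value, gave 0.83 for CONT SCI + Large (edgeR adjusted p = 0.0474, with 16.9% called). The F test over the 3 groups passed without either of these rats (edgeR adjusted p = 0.0112 without the uninjured rat, with 15.6% of genes called, and 0.0408 without the injured rat, with 2197 of 12203 genes called). The removal of any other single rat left Hamp uncalled in both comparisons. With all rats, DESeq2 called Hamp as higher in the tiny-cage rats (log2 difference 0.70, DESeq2 adjusted p = 0.0227, with 14.7% of genes called) and the large-cage rats (0.75, DESeq2 adjusted p = 0.0408, with 8.08% called), and in the test over the 3 groups (DESeq2 adjusted p = 0.0263, with 11.6% called).

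**Figure D2:**
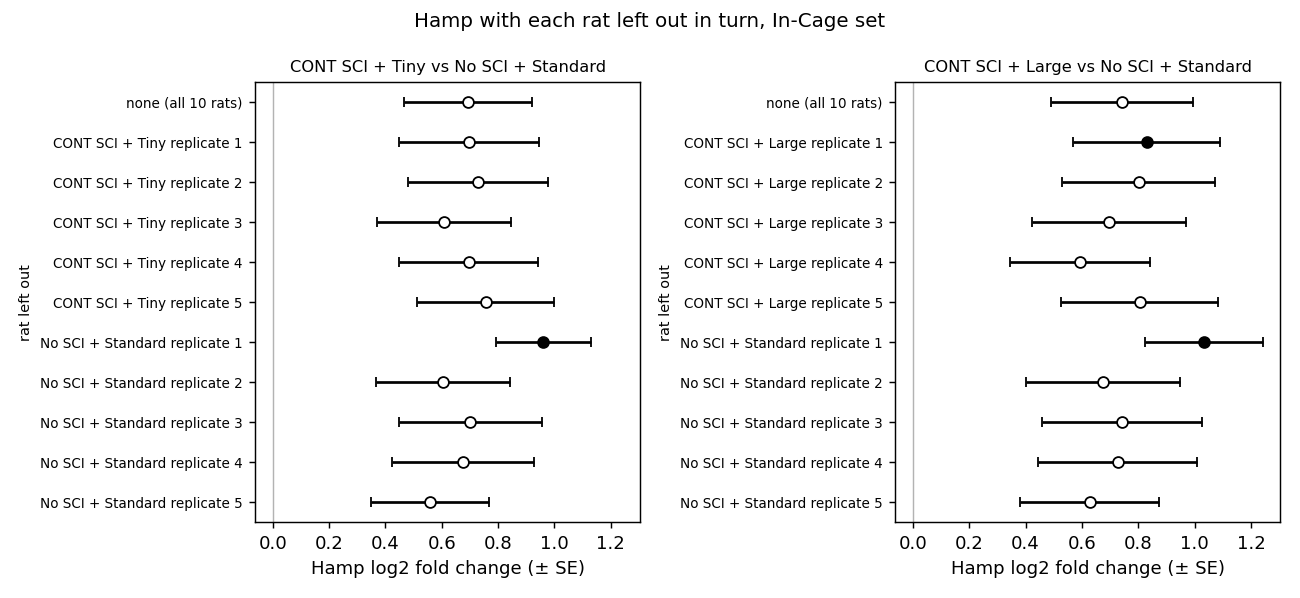
Log2 fold change of Hamp (x axis, points with ± SE from edgeR) between contused and uninjured rats of the In-Cage set, with all 10 rats and with the rat named on the y axis left out. Filled points have an adjusted p under 0.05; every point lies above 0, between 0.56 and 0.96 for CONT SCI + Tiny and between 0.59 and 1.03 for CONT SCI + Large.

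Cage size after contusion was compared between CONT SCI + Large and CONT SCI + Tiny. The Hamp difference was 0.05 on the log2 scale with a 95% interval of the ratio from 0.802 to 1.33 (edgeR adjusted p = 1.00), and 0.0% of all genes tested were called. Differences inside that interval were not resolved with 5 rats per group.

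In the Exercise set Hamp showed no ordering by injury or training. Uninjured No SCI rats had 697, 581, 913 and 705 CPM. CONT SCI rats had 812, 637, 503 and 1133 CPM. TX SCI rats had 359, 1136, 454 and 858 CPM. The transected rats held both the lowest and the highest Hamp value of the set, and their SD was 51.5% of their mean. CONT SCI + SWIM rats had 639, 818, 745, 634 and 895 CPM, and CONT SCI + SWW rats had 894, 914, 790.2, 679 and 714 CPM. Values of the trained rats all lay within the range of CONT SCI.

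Mean Hamp levels in the Exercise set were 724 ± 138 CPM in No SCI, 771 ± 272 in CONT SCI, 702 ± 361 in TX SCI (SD, n = 4 each), 746 ± 113 in CONT SCI + SWIM and 798 ± 105 in CONT SCI + SWW (SD, n = 5 each). CONT SCI differed from No SCI by 0.09 on the log2 scale (SE 0.24), a ratio of 1.06 from 0.739 to 1.53 (edgeR adjusted p = 0.998), and 0.00801% of genes were called. TX SCI differed from No SCI by -0.04 on the log2 scale (ratio from 0.579 to 1.64, 0.0638% of genes called) and from CONT SCI by -0.14 (ratio from 0.512 to 1.60, 0.0321% called). For training, CONT SCI + SWIM against CONT SCI gave -0.04 for Hamp with TMM (0.008% called) and 0.08 with scaling to library size alone (0.184% called). CONT SCI + SWW against CONT SCI gave 0.07 with TMM (0.759% called). Against No SCI the trained groups differed by 0.05 for CONT SCI + SWIM (0.00796% called) and 0.13 for CONT SCI + SWW (0.394% called), and the trained groups differed from each other by -0.10 (0.0% called). The lowest edgeR adjusted p of these 8 Hamp tests was 0.651. The comparisons of the Exercise set share groups with one another, No SCI or CONT SCI in most.

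Transferrin transcripts hardly separated the In-Cage groups. Replicates 1 to 5 of No SCI + Standard had a Tf level of 33968, 29129, 31890, 28696 and 29067 CPM. CONT SCI + Tiny had 32382, 29321, 26370, 34950 and 29987 CPM. CONT SCI + Large had 33130, 39420, 28450, 28850 and 34180 CPM. The 3 ranges overlapped, and the highest and lowest livers were both injured ones. Mean levels were 30550 ± 2298, 30602 ± 3240 and 32806 ± 4482 CPM (SD, n = 5 each). The Tf ratio of CONT SCI + Tiny to No SCI + Standard was 1.00 with a 95% interval from 0.832 to 1.20 (edgeR adjusted p = 0.995), and that of CONT SCI + Large was 1.07 from 0.892 to 1.29 (edgeR adjusted p = 0.605). Between the cage sizes the Tf ratio was 1.07 from 0.891 to 1.29, and the F test over the 3 groups gave edgeR adjusted p = 0.762.

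In the Exercise set the lowest Tf values were those of transected rats. No SCI rats had 34620, 33432, 36300 and 41905 CPM of Tf. CONT SCI rats had 42232, 36288, 37866 and 44502 CPM. TX SCI rats had 27392, 26914, 37480 and 35413 CPM. All 4 TX SCI rats lay below the CONT SCI median of 40049 CPM and 3 of 4 below every CONT SCI rat, but replicate 3 lay within the CONT SCI range. In CONT SCI + SWIM the Tf levels were 39153, 37839, 38090, 36247 and 34045 CPM. In CONT SCI + SWW they were 42354, 43389, 37223, 38120 and 41260 CPM. The 5 CONT SCI + SWIM rats also lay below the CONT SCI median, and the CONT SCI + SWW rats lay within the CONT SCI range.

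Mean Tf levels were 36564 ± 3750 CPM in No SCI, 40222 ± 3803 in CONT SCI, 31800 ± 5435 in TX SCI (SD, n = 4 each), 37075 ± 1987 in CONT SCI + SWIM and 40469 ± 2681 in CONT SCI + SWW (SD, n = 5 each). For TX SCI against CONT SCI the Tf difference was -0.35 on the log2 scale (SE 0.16), a ratio of 0.785 from 0.616 to 1.002 (edgeR adjusted p = 0.374, unadjusted p = 0.0516). This was the lowest p of the 24 pairwise edgeR tests of the 3 genes in the Exercise set, and the rats differed in time since injury as well as in injury. DESeq2 gave an unadjusted p of 0.0394 there (DESeq2 adjusted p = 0.337, with 2.06% of genes called). With all groups of the set in 1 fit, edgeR gave an unadjusted p of 0.0165 (edgeR adjusted p = 0.213, with 1.03% called). Against No SCI the Tf ratio was 0.871 from 0.662 to 1.15 for TX SCI, 1.10 from 0.904 to 1.33 for CONT SCI, 1.02 from 0.842 to 1.24 for CONT SCI + SWIM and 1.10 from 0.901 to 1.34 for CONT SCI + SWW. CONT SCI + SWIM differed in Tf from CONT SCI by -0.11 on the log2 scale with TMM and 0.01 with library size alone, and CONT SCI + SWW from CONT SCI by 0.03. The trained groups differed in Tf by -0.13, a ratio of 0.914 from 0.780 to 1.07. An F test over the 5 groups gave F = 2.50 for Tf (edgeR adjusted p = 0.284, with 2.65% of genes called).

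Ceruloplasmin transcripts had their highest group mean in the uninjured rats of the In-Cage set. The Cp level in No SCI + Standard was 2602, 3223, 2833, 3967 and 3042 CPM in replicates 1 to 5. In CONT SCI + Tiny it was 2719, 2364, 1938, 3423 and 2371 CPM. In CONT SCI + Large it was 2525, 3072, 1940 (replicate 3), 2398 and 2137 CPM. Below the lowest uninjured rat lay 3 of 5 CONT SCI + Tiny and 4 of 5 CONT SCI + Large rats, so the ranges overlapped, and CONT SCI + Tiny replicate 4 exceeded 4 of the 5 uninjured rats. Means were 3133 ± 521, 2563 ± 555 and 2415 ± 432 CPM (SD, n = 5 each). The Cp difference from No SCI + Standard was -0.29 on the log2 scale for CONT SCI + Tiny (SE 0.16), a ratio of 0.818 from 0.643 to 1.04 (edgeR adjusted p = 0.216). For CONT SCI + Large it was -0.38 (SE 0.15), a ratio of 0.769 from 0.611 to 0.966 (edgeR adjusted p = 0.129, unadjusted p = 0.0274). Between the cage sizes the Cp ratio was 0.941 from 0.739 to 1.20, and the F test over the 3 groups gave edgeR adjusted p = 0.199.

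In the Exercise set the mean Cp levels of the 5 groups all lay between 1823 and 1963 CPM. No SCI rats had a Cp level of 1993, 1608, 1759 and 1934 CPM. CONT SCI rats had 1968, 1893, 2107 and 1786 CPM. TX SCI rats had 1524, 2369, 2093 and 1867 CPM. The 3 groups overlapped and had means of 1823 ± 175, 1939 ± 135 and 1963 ± 358 CPM (SD, n = 4 each). Swimming rats (CONT SCI + SWIM) had 1638, 1799, 2513, 1961 and 1345 CPM, a mean of 1851 ± 434. Walking rats (CONT SCI + SWW) had 1987, 1520.2, 1326, 2036 and 2855 CPM, a mean of 1945 ± 592 (SD, n = 5 each). Both trained groups reached above and below the whole CONT SCI range. The 8 log2 differences of Cp ran from -0.07 for CONT SCI + SWIM against CONT SCI + SWW to 0.11 for TX SCI against No SCI. On the log2 scale the widest 95% interval was that of CONT SCI + SWIM against CONT SCI + SWW, which as a ratio ran from 0.691 to 1.31. The lowest edgeR adjusted p among these Cp tests was 0.835. The sign of 2 of these Cp differences near 0 depended on the scaling, as CONT SCI + SWW against CONT SCI was 0.02 with TMM and -0.00062 with RLE factors, and CONT SCI + SWIM against CONT SCI was -0.06 with TMM and 0.05 with library size alone. The median of all genes moved with them, by -0.025 where Cp moved by -0.024, and by 0.12 where Cp moved by 0.11.

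Ordered by mean, Hamp ran from CONT SCI + Large (844 CPM) through CONT SCI + Tiny, CONT SCI + SWW, CONT SCI, CONT SCI + SWIM, No SCI and TX SCI to No SCI + Standard (505 CPM). No step between neighbours in that order exceeded the larger of the neighbours' SDs, the last one included, which was 197 CPM against an SD of 361 in TX SCI. Tf ran from CONT SCI + SWW (40469 CPM) through CONT SCI, CONT SCI + SWIM, No SCI, CONT SCI + Large, TX SCI and CONT SCI + Tiny to No SCI + Standard (30550 CPM), again with every step within the larger SD. The Cp order began with No SCI + Standard (3133 CPM), CONT SCI + Tiny and CONT SCI + Large, followed by TX SCI, CONT SCI + SWW, CONT SCI, CONT SCI + SWIM and No SCI (1823 CPM). In the Cp order 2 steps exceeded the larger SD, namely 570 CPM from No SCI + Standard to CONT SCI + Tiny (SD 555) and 451 CPM from CONT SCI + Large to TX SCI (SD 432), and the ranges of the groups overlapped at both. The In-Cage groups all stood above the Exercise groups in the Cp order, so the order largely follows set. Within the Exercise set the last step, down to No SCI, was 28 CPM against an SD of 434. The F test over the groups of that set gave edgeR adjusted p = 0.979 for Cp, so the place of No SCI there was not resolved.

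**Figure D3:**
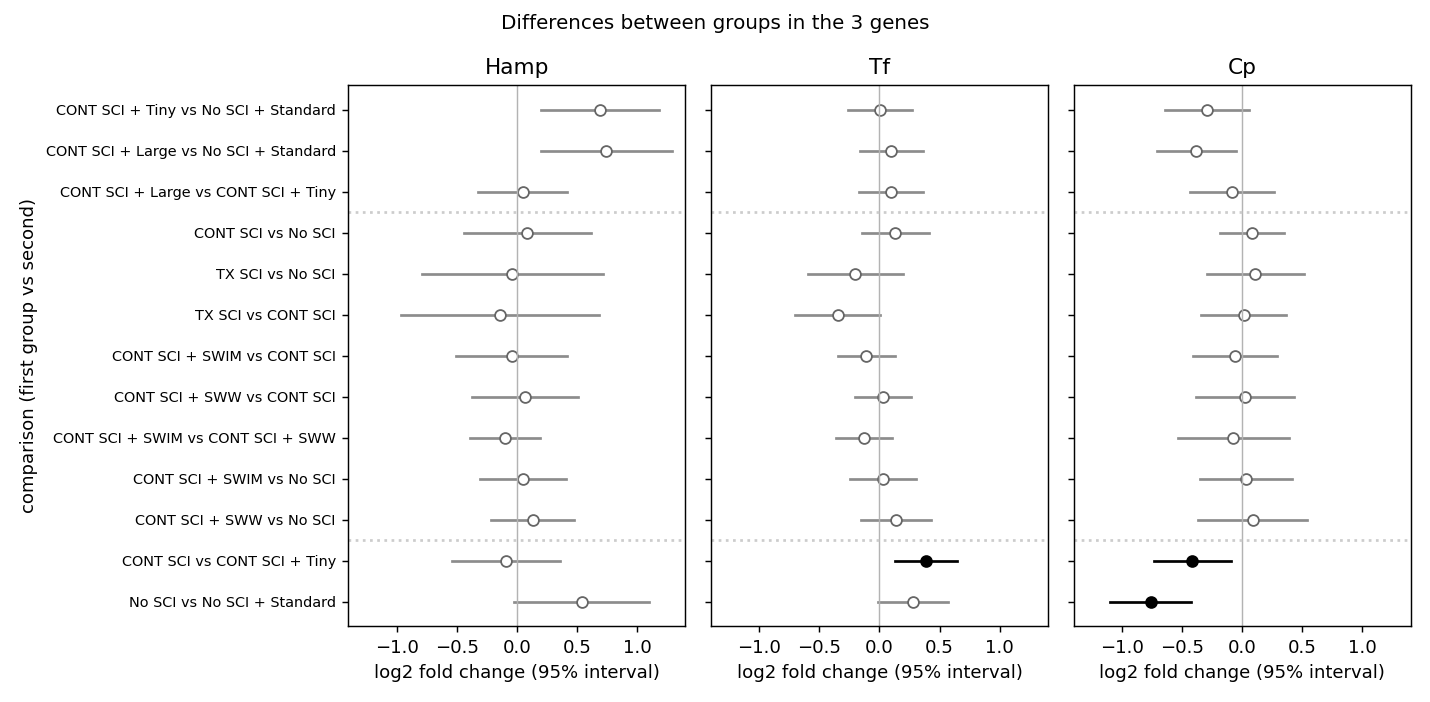
Log2 fold change of Hamp, Tf and Cp (x axis, edgeR, lines for the 95% interval) in the 13 comparisons (y axis, first group against second), parted by dotted lines into the In-Cage set, the Exercise set and the comparisons between sets. Filled points have an adjusted p under 0.05, and all 3 of them lie in the comparisons between sets.

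Rats of the same injury status were compared between the sets. The sets also differed in depth, as given above, so set and depth cannot be told apart, and 45.1% of genes were called between the contused groups and 51.4% between the uninjured groups. Between CONT SCI and CONT SCI + Tiny, which share contusion and tiny cages by their labels, Tf was higher in CONT SCI by 0.38 on the log2 scale (SE 0.12), a ratio of 1.30 from 1.09 to 1.56 (edgeR adjusted p = 0.0193). Tf values did not overlap there, with CONT SCI at 36288 CPM or more and CONT SCI + Tiny at 34950 CPM or less, and 39.0% of genes with a mean of at least 100 counts had no overlap either. The Tf call was lost without CONT SCI replicate 1 (edgeR adjusted p = 0.0587, with 36.5% of genes called) and without CONT SCI replicate 4 (0.0682, with 38.3% called).

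Cp was lower in CONT SCI than in CONT SCI + Tiny, with a difference of -0.41 on the log2 scale (SE 0.15), a ratio of 0.750 from 0.602 to 0.936 (edgeR adjusted p = 0.0354), with overlapping values. That Cp call was lost on leaving out any of 5 single rats, namely CONT SCI + Tiny replicate 1 (edgeR adjusted p = 0.0640) or 4 (0.0706) and CONT SCI replicate 1 (0.0745), 2 (0.0788) or 4 (0.0963), with 41.8%, 42.8%, 36.5%, 39.3% and 38.3% of genes called. It was also lost with scaling to library size alone (-0.28, edgeR adjusted p = 0.110) and with all 8 groups in 1 fit (-0.40, edgeR adjusted p = 0.0929). For Hamp the same comparison gave -0.09 with TMM and 0.03 with library size alone (edgeR adjusted p = 0.743 with TMM).

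Between the uninjured groups, which differed in cage size as well as set, Cp was lower in No SCI than in No SCI + Standard, with a difference of -0.76 on the log2 scale (SE 0.16), a ratio of 0.591 from 0.467 to 0.746 (edgeR adjusted p = 0.00178). All 4 No SCI rats, at 1993 CPM or less, lay below all 5 No SCI + Standard rats, at 2602 CPM or more, and 44.4% of genes with a mean of at least 100 counts had no overlap. Leaving out any 1 rat kept this Cp difference called in all 9 fits, between -0.82 and -0.66. Hamp differed by 0.54 (SE 0.26, edgeR adjusted p = 0.0985), and by 0.80 without No SCI + Standard replicate 1 (edgeR adjusted p = 0.00636, with 51.1% of genes called). Tf differed by 0.28 (SE 0.13, edgeR adjusted p = 0.0976) and was called by DESeq2 (0.29, DESeq2 adjusted p = 0.0378, with 38.7% of genes called). With 45.1% and 51.4% of all genes called, 3 of 6 tests is near the background, and these calls say nothing particular to the 3 genes.

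The contusion contrast was then compared between the sets, as the difference of CONT SCI against No SCI minus that of CONT SCI + Tiny against No SCI + Standard. It was -0.62 on the log2 scale for Hamp (SE 0.36, 95% interval -1.36 to 0.12, edgeR adjusted p = 0.272), 0.36 for Cp (SE 0.21, edgeR adjusted p = 0.283) and 0.11 for Tf (SE 0.16, edgeR adjusted p = 0.683). None of the 3 passed, and 0.199% of all genes did, a share of 25 genes that ran from 1 without CONT SCI replicate 3 to 2010 without No SCI replicate 2. The 4 groups enter the between-set comparisons as well, and the uninjured groups differed in cage size.

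Rats of 1 group differed from one another far more in Hamp than in Tf. The pooled SD between rats of a group, in log2 CPM, was 0.39 for Hamp in the In-Cage set and 0.43 in the Exercise set, where the median of 9099 genes with a mean of at least 100 counts was 0.23 in both. That placed the Hamp SD above those of 88.2% and 89.3% of these genes. For Tf the SD was 0.16 and 0.15, above 16.4% and 10.9% of genes, and for Cp it was 0.26 and 0.30, above 62.1% and 71.6%. An SD of 0.39 is a spread of 1.31-fold around the mean and one of 0.16 is 1.11-fold. Among groups the SD of the Hamp level, as a share of its mean, ran from 13.2% in CONT SCI + SWW to 51.5% in TX SCI.

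**Figure D4:**
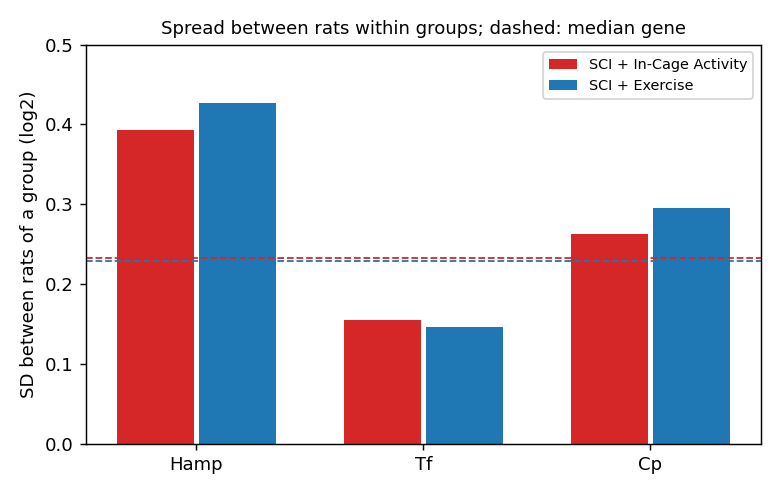
Pooled SD of the log2 level between rats of the same group (y axis) for Hamp, Tf and Cp (x axis), in the In-Cage set (15 rats) and the Exercise set (22 rats), with dashed lines at the median of 9099 genes in each set. Hamp lies well above the median gene, Tf below it and Cp a little above it in both sets.

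The 3 genes did not move together from rat to rat to a degree these numbers could resolve. After removing group means, 6 relations were computed, 3 pairs of genes in each set, on log2(CPM + 1). The strongest was that of Tf and Cp in the In-Cage set, with Pearson's r = 0.51 (permutation p = 0.0520, adjusted p = 0.312) and Spearman's rho = 0.42 (permutation p = 0.118, adjusted p = 0.422) over 15 rats. Without the pair of rats farthest from the median of Tf after removal of group means, r was 0.12, over a narrower range of these Tf deviations. Hamp and Cp gave r = -0.36 in the In-Cage set (permutation p = 0.184, adjusted p = 0.552, rho = -0.40 with permutation p = 0.141) and r = 0.04 in the Exercise set (permutation p = 0.873, adjusted p = 0.873, rho = -0.13 with permutation p = 0.557). Hamp and Tf gave r = -0.07 (permutation p = 0.799, rho = -0.18 with permutation p = 0.515) and r = 0.14 (permutation p = 0.531, rho = 0.24 with permutation p = 0.286), with adjusted p of 0.873 and 0.797 for r. Tf and Cp in the Exercise set gave r = 0.18 (permutation p = 0.432, adjusted p = 0.797, rho = 0.06 with permutation p = 0.785). Without the pair of rats farthest from the median of the first gene named, again after removal of group means, these 5 relations gave r between -0.50 and 0.28. Hamp and Tf in the In-Cage set moved most, from -0.07 to -0.50 (permutation p = 0.0804, adjusted p = 0.322), and Hamp and Cp in the Exercise set turned from 0.04 to -0.30.

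Genes were also ranked by how closely they followed each of the 3 from rat to rat. The top of 9098 values cannot be set against the r of a single chosen pair. Over all 37 rats with group means removed, the gene most like Hamp among 9098 was ENSRNOG00000016275, with r = 0.76, and it reached 0.75 in the In-Cage set and 0.78 in the Exercise set taken alone. Over all 37 rats 19 genes had r above 0.7 with Hamp and none did with Tf or Cp, a contrast that rests on this cutoff and on the pooled rats. The gene most like Tf over all 37 rats was ENSRNOG00000014178 (r = 0.68), with 0.79 in the In-Cage set and 0.60 in the Exercise set taken alone. It did not lead within the sets, as the gene ranked next (pooled r = 0.67) reached 0.86 and 0.68 there. The gene most like Cp was ENSRNOG00000008855 (r = 0.70, just under the cutoff), with 0.69 in the In-Cage set and 0.70 in the Exercise set. The median r of all genes was 0.00 with Hamp, 0.03 with Tf and 0.00 with Cp. These are the highest of many values from the same libraries, given as a description, and no table used here gives names for these identifiers.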

How the data were processed

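Liver poly(A) RNA of 37 rats was sequenced as single-end reads from stranded libraries. The authors aligned the reads to Rn6 with STAR, counted them by strand on Ensembl genes with HTSeq, left out mitochondrial genes, and deposited raw counts, whole numbers per gene and rat without normalization. The submitters' processing notes also name FastQC 0.10.1. Between 20066978 and 36761953 counts were recorded per rat. All 37 columns were used, and the 68 pairs of rats within groups all differed by more than sampling noise (lowest reduced chi-square 31.0).

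Tests over all genes used edgeR 4.0.16 under R 4.3.3 (TMM scaling, filterByExpr with a minimum count of 10, robust quasi-likelihood fits on the groups compared), with Benjamini-Hochberg adjustment over all genes tested and calls at an adjusted p under 0.05. Each SE is the log2 difference divided by the square root of F. There were 13 comparisons of group pairs, F tests over the groups of each set and a test of the interaction. Scripts were tested on simulated data. Correlations used 100000 permutations, two-sided. Replicates are rats as the labels number them. The tests between groups set a difference against the spread between these rats, which edgeR and DESeq2 estimate partly from other genes. Alternatives were RLE factors, no filter on low counts, all groups in 1 fit, the replicate number as a block, DESeq2 1.42.0 and each rat left out. Scaling to library size alone was added after seeing the data.

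The 3 genes, the lists and the motifs were chosen with earlier results of these data known. Named genes were the 3, and the gene most correlated with each. The rule also allowed a second correlated gene for each and genes of 14 lists of iron, copper, acute phase and cell type markers (126 symbols). The reference table matched 0 of the Ensembl identifiers, so those lists were not analysed here and the second identifiers are not printed.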

Additional observations from a re-analysis of the deposited data

How the results depend on the processing

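Over RLE factors, no low-count filter, all groups in 1 fit, DESeq2 and scaling to library size alone, results kept their direction and their side of the threshold in 53 of 54, 46 of 48, 38 of 39, 43 of 48 and 31 of 39 cases, and the exceptions follow as log2 differences, the cause of each not tested. With library size alone, which was added after seeing the data and moved the median of all genes by over 0.1 in 4 comparisons (by 0.13 for TX SCI and 0.12 for CONT SCI + SWIM against CONT SCI, 0.13 for CONT SCI against CONT SCI + Tiny and 0.20 for No SCI against No SCI + Standard), Hamp was called in CONT SCI + Tiny (0.75, edgeR adjusted p = 0.0449, with 1161 of 11859 genes called) and in No SCI against No SCI + Standard (0.74, edgeR adjusted p = 0.0189), as was Tf in the latter (0.47, edgeR adjusted p = 0.00543, with 5768 of 12174 genes called). Cp lost its call between CONT SCI and CONT SCI + Tiny (-0.28), Hamp there turned to 0.026, and CONT SCI + SWIM against CONT SCI turned to 0.082 for Hamp, 0.0095 for Tf and 0.053 for Cp. The calls between the sets then split into 3473 higher and 1767 lower for CONT SCI against CONT SCI + Tiny (2792 and 2713 with TMM), and into 4045 and 1723 for No SCI against No SCI + Standard (3193 and 3059 with TMM). All groups in 1 fit lost the Cp call between CONT SCI and CONT SCI + Tiny (-0.40). DESeq2 called Hamp in CONT SCI + Tiny (0.70) and CONT SCI + Large (0.75) and in the In-Cage test over groups (likelihood ratio statistic 11.6, adjusted p = 0.0263), and Tf between the uninjured groups (0.29). Signs near 0 turned for Tf in CONT SCI + Tiny against No SCI + Standard without the filter (-0.0023), and for Cp in TX SCI against CONT SCI without the filter (-0.00039) and in CONT SCI + SWW against CONT SCI with RLE (-0.00062) and DESeq2 (-0.0021). Without the pair of rats farthest from the median, the correlation of Hamp and Cp in the Exercise set was -0.30 and that of Hamp and Tf in the In-Cage set -0.50.

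In none of the 13 comparisons did every same-numbered pair of rats deviate together (r over 0.1), so the main tests used no pairing by replicate number. A single discordant pair is enough to fail this rule, and 3 of 5 pairs met it in CONT SCI + Tiny against No SCI + Standard. It therefore cannot show that the numbers carry no pairing. In comparisons of 4 with 5 rats, replicate 5 has no partner, so a block by number in effect leaves that rat out. A change with the block there cannot be told apart from the loss of that rat. With the number as a block, Hamp was called in CONT SCI + Tiny (0.77, edgeR adjusted p = 0.0274, with 1670 of 11859 genes called), Tf (0.38, 0.0646) and Cp (-0.41, 0.100) were not called between CONT SCI and CONT SCI + Tiny, and these signs turned: Tf in CONT SCI + Tiny (-0.0015), Cp in TX SCI against CONT SCI (-0.0064), in CONT SCI + SWIM (0.018) and CONT SCI + SWW (-0.17) against CONT SCI and in CONT SCI + SWW against No SCI (-0.12), and Hamp in CONT SCI + SWIM against No SCI (-0.013). The block lowered the count of calls over all genes from 4 to 1 in CONT SCI + Large against No SCI + Standard and from 584 to 4 in the In-Cage F test. Among other falls were 50 to 12 in CONT SCI + SWW against No SCI and 346 to 124 in the Exercise F test. It raised the count from 1479 to 1670 in CONT SCI + Tiny against No SCI + Standard and from 1 to 13 in CONT SCI against No SCI. For CONT SCI + SWIM the count rose from 1 to 7 against CONT SCI and from 1 to 7 against No SCI.

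With each rat left out, Hamp ran from 0.56 to 0.96 in CONT SCI + Tiny and from 0.59 to 1.03 in CONT SCI + Large against No SCI + Standard, from 4.30 to 15.5 as the In-Cage F value, and from 0.40 to 0.80 between the uninjured groups, with calls gained in each. Between CONT SCI and CONT SCI + Tiny, Tf ran from 0.33 to 0.43 and Cp from -0.50 to -0.29, with calls lost. Uncalled differences that crossed 0 were, for Hamp, CONT SCI + Large against CONT SCI + Tiny (-0.094 to 0.14), CONT SCI against CONT SCI + Tiny (-0.33 to 0.074) and No SCI (-0.15 to 0.25), TX SCI against No SCI (-0.38 to 0.16) and CONT SCI (-0.44 to 0.11), CONT SCI + SWIM against CONT SCI (-0.20 to 0.20) and No SCI (-0.030 to 0.16), and CONT SCI + SWW against CONT SCI (-0.092 to 0.31). For Tf they were CONT SCI + Tiny against No SCI + Standard (-0.050 to 0.059), CONT SCI + SWIM against No SCI (-0.0023 to 0.088) and CONT SCI + SWW against CONT SCI (-0.017 to 0.080). For Cp they were CONT SCI + Large against CONT SCI + Tiny (-0.18 to 0.033), TX SCI against No SCI (-0.00078 to 0.20) and CONT SCI (-0.064 to 0.15), CONT SCI + SWIM against CONT SCI (-0.19 to 0.035), No SCI (-0.12 to 0.13) and CONT SCI + SWW (-0.20 to 0.10), and CONT SCI + SWW against CONT SCI (-0.16 to 0.13) and No SCI (-0.096 to 0.20).

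Calls over all genes in the comparisons within sets ranged from 0 to 1479 with edgeR and from 3 to 2531 with DESeq2. With 1 rat left out they ran from 1 to 234 in TX SCI against CONT SCI, from 2 to 23 in TX SCI and from 2 to 1684 in CONT SCI + SWW against No SCI, from 0 to 533 in CONT SCI + SWW against CONT SCI, and from 159 to 612 in the Exercise F test. Counts of called genes on the iron, copper and marker lists were not run, because the lists could not be matched. With 4 or 5 rats per group, differences of the size seen in Hamp were near the limit of what was resolved.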
